A study of Mus musculus with 6 samples.

Results

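The genes described here are 10 core members of the Notch pathway: the receptors Notch1, Notch2 and Notch3, the ligands Dll1, Jag1 and Jag2, the DNA-binding factor Rbpj, and the target genes Hes1, Hey1 and Heyl. They were chosen by symbol among the 39010 gene rows of the expression table, and each symbol was present. The data are RNA-seq libraries of hindlimb skeletal muscle from mice of a mixed strain background and wild-type genotype, taken on postnatal day 2 (P2), day 7 (P7) or day 14 (P14), with 2 libraries per stage and 6 in all. The study asked which genes accompany the growth of neonatal muscle. No treatment or mutant allele was part of it, so each comparison is between ages. The replicates are called biological, but no source says whether each is a single animal or a pool, and p-values therefore cover only the spread between these samples. The tissue is whole muscle, and in such bulk RNA fewer cells of a type and less RNA per cell cannot be told apart.

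Notch is a receptor that is activated by contact between neighbouring cells. A Delta or Jagged ligand on one cell binds the receptor on the next, the receptor is cut, and its freed intracellular part enters the nucleus, where it joins Rbpj and a Mastermind coactivator to switch on Hes and Hey genes, which encode transcriptional repressors. In skeletal muscle the pathway is known for keeping satellite cells, the muscle stem cells, undifferentiated and quiescent, and in blood vessels for arterial identity and for the coverage of vessels by mural cells.

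Among the 7 members with a promoter sequence to search, only Rbpj held the Rbpj core motif. The motif was present in 25.6% of 32817 promoters of the same length, so the members were not enriched for it. Hes1, Hey1 and Heyl had no sequence to search. Promoter sequences are shown for Notch2 and Jag1, the only members past the test threshold in a comparison of stages, and for Rbpj. Each runs from 250 bases before to 50 bases after an annotated transcription start in RefSeq (GRCm38.p6), 5′ to 3′ on the gene's own strand. The Notch2 stretch lies at chr3:98013288-98013587 on the plus strand, the Jag1 stretch at chr2:137116471-137116770 on the minus strand and the Rbpj stretch at chr5:53590096-53590395 on the plus strand. Capitals mark matches, on either strand, to TGGGAA, the core of the sequence that Rbpj binds, or to CACNAG, the N-box bound by Hes repressors.
Notch2: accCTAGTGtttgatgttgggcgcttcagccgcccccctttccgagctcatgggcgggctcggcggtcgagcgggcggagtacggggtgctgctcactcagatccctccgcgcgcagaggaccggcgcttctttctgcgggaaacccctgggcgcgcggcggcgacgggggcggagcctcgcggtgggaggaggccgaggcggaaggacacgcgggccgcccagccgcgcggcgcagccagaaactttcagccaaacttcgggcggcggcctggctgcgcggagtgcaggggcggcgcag
Jag1: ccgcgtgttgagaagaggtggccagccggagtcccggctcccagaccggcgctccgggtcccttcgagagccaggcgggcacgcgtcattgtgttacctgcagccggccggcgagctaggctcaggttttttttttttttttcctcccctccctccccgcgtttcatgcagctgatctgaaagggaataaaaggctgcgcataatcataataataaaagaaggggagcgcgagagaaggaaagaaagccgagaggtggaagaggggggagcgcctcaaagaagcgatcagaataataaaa
Rbpj: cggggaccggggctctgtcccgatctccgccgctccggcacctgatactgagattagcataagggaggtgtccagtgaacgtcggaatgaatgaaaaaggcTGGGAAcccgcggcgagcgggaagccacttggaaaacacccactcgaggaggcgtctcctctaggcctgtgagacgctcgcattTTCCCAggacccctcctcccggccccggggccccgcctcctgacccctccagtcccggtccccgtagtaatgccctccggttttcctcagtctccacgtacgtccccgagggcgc

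The capitals in the Notch2 promoter are an N-box on the minus strand, the Jag1 promoter held neither motif, and those in the Rbpj promoter are 2 core motifs, the first on the plus and the second on the minus strand, whose leftmost bases lie at -149 and -65 relative to the start. Promoters were found for 7 of the 10 members; Hes1, Hey1 and Heyl are named only. Dll1 and Rbpj have 2 promoters each in the table, which makes 9 in all. TGGGAA was present in 2 of these 9 promoters, both of Rbpj, and in 25.6% of 32817 promoters of the same length. The 2 Rbpj promoters overlap, and the match in the second is the same site as that at -65 in the first. CACNAG was present in 4 of the 9, namely those of Notch1, Notch2 and Notch3 and 1 of the pair of Dll1, and in 42.5% of all promoters. A match is a string of letters and not a measured binding site.

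Expression is given as FPKM, a count of fragments scaled for transcript length and sequencing depth, which allows levels to be compared between genes. In each library 12175 to 13337 genes reached 1 FPKM, and 13566 genes passed the filter of 1 FPKM in at least 2 libraries; all 10 members passed it. The absolute depth is unknown; relative to P2 replicate 1, the steps of low values put the other libraries at 68.1% to 94.2%. Skeletal muscle markers were abundant, with a summed level of 3652 to 4962 FPKM at P2 and 9164 to 10656 FPKM at P14 over 6 genes, although Ttn is listed at 0 in P14 replicate 1. P2 replicate 2 and P7 replicate 1 held Xist at 74.7 and 61.2 FPKM, against less than 1 FPKM in the other 4 libraries, so sex is not balanced across the stages. Stage differences were tested with limma on log2(FPKM + 1), with p-values adjusted by Benjamini-Hochberg over all 13566 genes, and called means an adjusted p below 0.05. On this scale differences of low genes are understated. The median of all tested genes was -0.27 for P7 versus P2, 0.23 for P14 versus P7 and -0.05 for P14 versus P2, so differences that involve P7 are read against those shifts. P2 replicate 2 stood above P2 replicate 1 for all 10 members, with a median log2 difference of 0.50, against 0.25 over all tested genes; in P7 and P14 the median difference between replicates of the members was -0.11 and -0.14. The P2 values of the members therefore carry the widest spread.

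**Figure D1:**
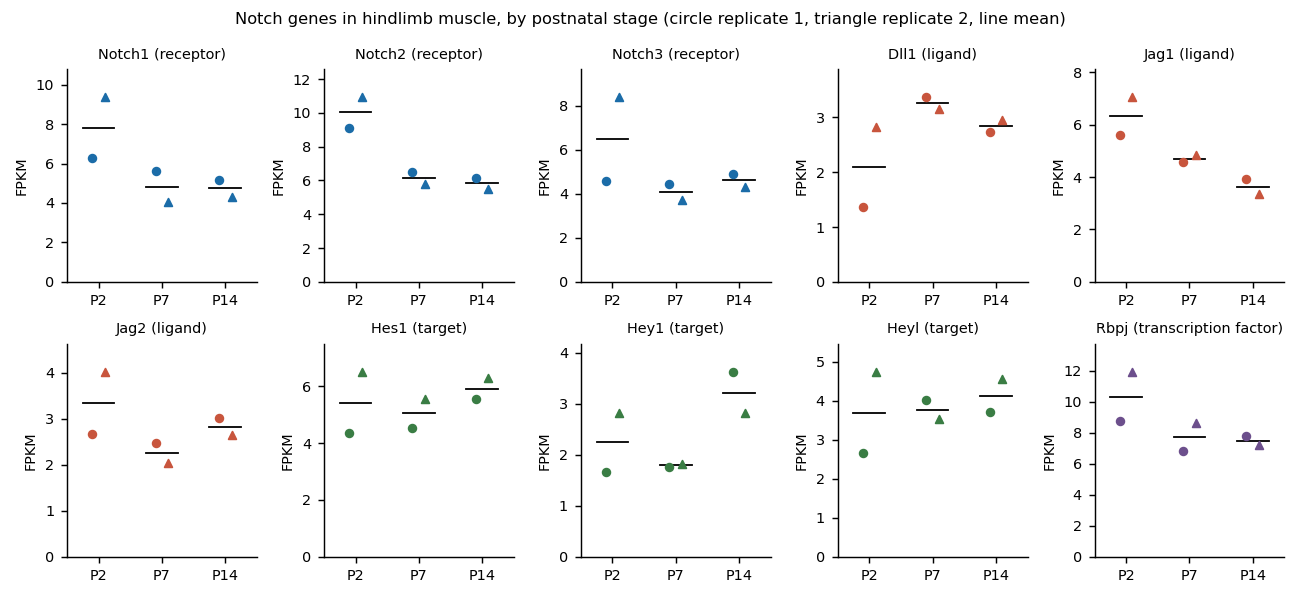
FPKM of the 10 Notch genes in each of the 6 libraries (y axis, linear, from 0) by postnatal stage (x axis); circles are replicate 1, triangles replicate 2 and lines the stage means. At P2 the triangle lies above the circle for every gene, and the libraries of Notch2 and Jag1 at P14 all lie below those at P2.

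Among the receptors, Notch2 had fallen by P14. Notch2, a receptor found, like Notch1 and Notch3, in satellite cells, was listed at 9.13 and 10.9 FPKM at P2, 6.49 and 5.81 FPKM at P7, and 6.17 and 5.52 FPKM at P14. Both P2 libraries were above all 4 later ones, and the P7 and P14 libraries overlapped. The mean was 10.03 ± 1.27 FPKM at P2 and 5.84 ± 0.464 FPKM at P14 (SD, n = 2), a log2 difference of -0.69 (SE 0.16, 95% interval -1.07 to -0.30, limma adjusted p = 0.0259) and 0.622 times the P2 level on the log2(FPKM + 1) scale. For P7 versus P2 the log2 difference was -0.62 (SE 0.16, limma adjusted p = 0.0930), which is -0.35 relative to the median of all genes, and for P14 versus P7 it was -0.06 (limma adjusted p = 0.813). Notch2 was also the only member called by the moderated F test over the 3 stages (limma adjusted p = 0.0426), a test that called 21.1% of all genes; without either P7 library or either P14 library it called 0 members, and without P2 replicate 1 it called 3. Its P14 versus P2 call was lost on leaving out any library except P2 replicate 1: the limma adjusted p was 0.0583 without P2 replicate 2, 0.0629 and 0.0635 without P7 replicates 1 and 2, and 0.0973 and 0.124 without P14 replicates 1 and 2, and it was 0.0603 with a replicate block. The difference itself stayed between -0.80 and -0.57 when single libraries were left out.

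Notch1, the receptor with broad roles in stem cells and endothelium, was at 6.26 and 9.38 FPKM at P2, 5.62 and 4.05 FPKM at P7, and 5.19 and 4.32 FPKM at P14. The P2 libraries were above all later ones, and the P2 replicates differed most. The mean was 7.82 ± 2.2 FPKM at P2, 4.83 ± 1.11 FPKM at P7 and 4.76 ± 0.615 FPKM at P14 (SD, n = 2). The log2 difference was -0.59 (SE 0.23) for P7 versus P2 and -0.60 (SE 0.23, 95% interval -1.15 to -0.05) for P14 versus P2, and neither passed the threshold (limma adjusted p = 0.166 and 0.105). Without P2 replicate 2 the differences were -0.33 and -0.34. For P14 versus P2 the threshold was passed with quantile normalization and with scaling to the protein-coding sum (limma adjusted p = 0.0478 and 0.0118). Notch3, which is abundant in mural cells and is also present in satellite cells, was at 4.59 and 8.40 FPKM at P2, 4.42 and 3.70 FPKM at P7, and 4.92 and 4.31 FPKM at P14. The lower P2 library lay within the P14 range, and both P2 libraries were above those of P7. Its log2 difference for P14 versus P2 was -0.37 (SE 0.26, limma adjusted p = 0.324). Leaving out P2 replicate 2 gave 0.01 and leaving out P2 replicate 1 gave -0.74 (limma adjusted p = 0.986 and 0.0418), so the P2 library used decides the value.

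Among the ligands, Jag1 had fallen by P14 while the mean of Dll1 was lowest at P2. Jag1, a Jagged ligand expressed by endothelium and mural cells among others, was at 5.63 and 7.06 FPKM at P2, 4.56 and 4.83 FPKM at P7, and 3.91 and 3.37 FPKM at P14. The libraries of the 3 stages did not overlap, and the level was lower at each later stage. The mean was 6.34 ± 1.01 FPKM at P2, 4.69 ± 0.189 FPKM at P7 and 3.64 ± 0.384 FPKM at P14 (SD, n = 2). For P14 versus P2 the log2 difference was -0.66 (SE 0.16, 95% interval -1.05 to -0.27, limma adjusted p = 0.0300), 0.633 times the P2 level on the log2(FPKM + 1) scale. The steps from P2 to P7 (-0.36) and from P7 to P14 (-0.30) did not pass the threshold (limma adjusted p = 0.205 and 0.250). The all-gene median changed sign between these steps, and relative to it Jag1 was at -0.09 in the first and -0.53 in the second; with median-of-ratios scaling, quantile normalization or scaling to the protein-coding sum Jag1 was called lower at P14 than at P7 (limma adjusted p = 0.0302, 0.0373 and 0.0191). The P14 versus P2 call, like that of Notch2, was lost on leaving out any library except P2 replicate 1: the limma adjusted p was 0.0698 without P2 replicate 2, 0.0702 and 0.0708 without P7 replicates 1 and 2, and 0.0996 and 0.143 without P14 replicates 1 and 2, and it was 0.0624 with a replicate block.

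Dll1, a Delta ligand expressed by differentiating myogenic cells, was at 1.37 and 2.82 FPKM at P2, 3.37 and 3.15 FPKM at P7, and 2.73 and 2.95 FPKM at P14. Both P7 libraries were above all others, and P2 and P14 overlapped. The mean was 2.09 ± 1.02 FPKM at P2, 3.26 ± 0.160 FPKM at P7 and 2.84 ± 0.156 FPKM at P14 (SD, n = 2). The log2 difference for P7 versus P2 was 0.50 (SE 0.23, 95% interval -0.06 to 1.06, limma adjusted p = 0.212), or 0.77 above the all-gene median of that comparison. It was 0.16 on leaving out P2 replicate 1 and 0.84 on leaving out P2 replicate 2. For P14 versus P2 it was 0.35 (limma adjusted p = 0.308), and it rested on P2 replicate 1: without that library it was 0.01, and without P2 replicate 2 it was 0.69 and called (limma adjusted p = 0.0302). Jag2, the second Jagged ligand, was at 2.67 and 4.01 FPKM at P2, 2.48 and 2.03 FPKM at P7, and 3.01 and 2.64 FPKM at P14. P7 lay below both other stages without overlap, and P2 and P14 overlapped. No comparison of Jag2 passed the threshold (limma adjusted p = 0.228, 0.433 and 0.561 for P7 versus P2, P14 versus P7 and P14 versus P2).

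Rbpj, through which the 3 receptors act on DNA, had the highest mean of the 10 genes at every stage. It was at 8.76 and 11.9 FPKM at P2, 6.82 and 8.62 FPKM at P7, and 7.77 and 7.24 FPKM at P14. The P14 libraries lay below both P2 libraries and within the range of P7. The mean was 10.3 ± 2.24, 7.72 ± 1.27 and 7.51 ± 0.377 FPKM at the 3 stages (SD, n = 2), and the log2 difference for P14 versus P2 was -0.40 (SE 0.20, 95% interval -0.87 to 0.07, limma adjusted p = 0.181). On leaving out P2 replicate 2 it was -0.20, and with scaling to the protein-coding sum it was -0.74 and called (limma adjusted p = 0.00768).

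No difference of a target gene passed the threshold in any comparison. Hes1, a repressor that responds to Notch and to other signals, was at 4.35 and 6.50 FPKM at P2, 4.53 and 5.57 FPKM at P7, and 5.54 and 6.31 FPKM at P14. The stages overlapped in every comparison, that of P7 with P14 only by the higher P7 library. The log2 difference for P14 versus P2 was 0.13, with a 95% interval of -0.37 to 0.62 (limma adjusted p = 0.688). Heyl, a target that is abundant in mural and satellite cells, was at 2.66 and 4.74 FPKM at P2, 4.02 and 3.53 FPKM at P7, and 3.71 and 4.55 FPKM at P14. The P2 replicates spanned the values of both later stages, and the log2 difference for P14 versus P2 was 0.16, with a 95% interval of -0.40 to 0.72 (limma adjusted p = 0.654). These intervals hold changes of either sign, and both differences turned negative with scaling to the protein-coding sum (-0.20 for Hes1 and -0.14 for Heyl). The sign also rested on single P2 libraries: leaving out P2 replicate 1 gave -0.12 for Hes1 and -0.17 for Heyl, and leaving out P2 replicate 2 gave 0.37 and 0.48.

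Hey1, a target that with Heyl has been tied to satellite cell maintenance in mice, was at 1.66 and 2.82 FPKM at P2, 1.77 and 1.81 FPKM at P7, and 3.62 and 2.81 FPKM at P14. Both P14 libraries were above both P7 libraries, and P14 overlapped P2 only by a lower library of 2.81 FPKM against the higher P2 library of 2.82 FPKM. The mean was 2.24 ± 0.820, 1.79 ± 0.0306 and 3.22 ± 0.573 FPKM at the 3 stages (SD, n = 2). The log2 difference for P14 versus P7 was 0.59 (SE 0.21, 95% interval 0.08 to 1.09, limma adjusted p = 0.109), which is 0.36 above the all-gene median. It passed the threshold without P2 replicate 1 or P2 replicate 2 (limma adjusted p = 0.0464 and 0.0471), with the same difference.

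For P14 versus P2, 2 of the 10 members were called lower (Notch2 and Jag1), where 12.9% of all tested genes were called lower, and 0 were called higher, where 11.5% were. Unadjusted, 3 members had a p below 0.05. The median log2 difference of the members was -0.27, against -0.05 over all genes. For P7 versus P2, 0 members were called in either direction by limma, where 0.111% of all genes were called higher and 1.18% lower, and 2, Notch1 and Notch2, had an unadjusted p below 0.05; the median of the members was -0.37. For P14 versus P7, 0 members were called by limma, where 8.75% of all genes were called higher and 1.6% lower, and 1, Hey1, had an unadjusted p below 0.05; the median was 0.05. The libraries of P2 and P14 did not overlap for 4 members, all lower at P14 (Notch1, Notch2, Jag1 and Rbpj), against 35.2% of all genes in that direction and 28.5% in the other. At P7, 6 members were lower than at P2 without overlap and 1, Dll1, was higher, against 53.9% and 6.42% of all genes. At P14, Jag2 and Hey1 were higher and Dll1 and Jag1 lower than at P7 without overlap, against 53.8% and 15.3% of all genes.

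**Figure D2:**
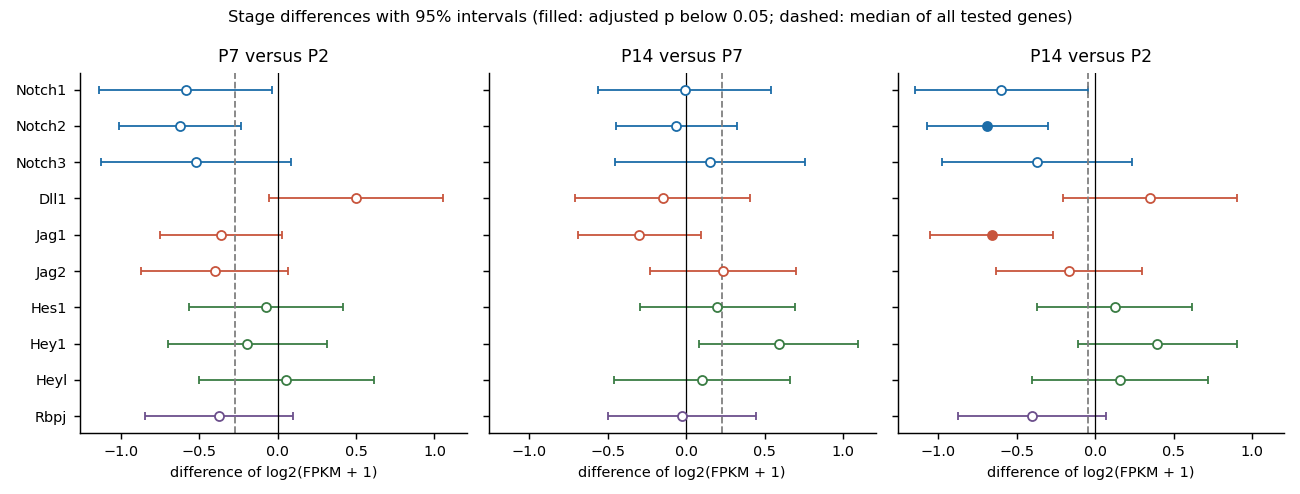
Differences of log2(FPKM + 1) between stages (x axis) for each of the 10 genes (y axis), with 95% intervals from the fit; filled points passed the adjusted threshold and dashed lines mark the median of all tested genes. The filled points are Notch2 and Jag1 in the comparison of P14 with P2, at -0.69 and -0.66.

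Shares within a role do not depend on the scaling of a library, because both parts of the share come from the same library. With 2 libraries against 2, an exact two-sided permutation test cannot give a p below 0.333, so the shares are described without a call. Dll1 made up 14.2% and 20.3% of the summed FPKM of the 3 ligands at P2, 32.4% and 31.5% at P7, and 28.3% and 32.9% at P14. Its share at P2 was below that in every later library, with means of 17.2% ± 4.31, 31.9% ± 0.661 and 30.6% ± 3.30 (SD, n = 2). Jag1 made up 58.2% and 50.8% at P2, 43.8% and 48.3% at P7, and 40.5% and 37.6% at P14, and the stages did not overlap. The Jag2 share was 27.6% and 28.9% at P2, 23.8% and 20.3% at P7, and 31.2% and 29.5% at P14, lowest at P7. The summed ligand level itself was 9.67 and 13.9 FPKM at P2, 10.4 and 10.002 FPKM at P7, and 9.65 and 8.95 FPKM at P14, with P14 the lowest. Jag1 was the largest part of these 3 ligands in every library. The ligand sums and shares leave out Dll4, which is not a member. Dll4 was at 1.33 ± 0.714 FPKM at P2 and 1.70 ± 0.206 FPKM at P14 (SD, n = 2).

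The receptors kept a more even make-up. Notch1 made up 29.8% to 34.0% of the summed receptor FPKM over the 6 libraries, Notch2 37.9% to 45.7%, and Notch3 23.0% to 30.5%, where its share at P14 (30.2% and 30.5%) lay above that at P2 (23.0% and 29.2%) and P7 (26.8% and 27.3%). The summed receptor level was 19.98 and 28.7 FPKM at P2, 16.5 and 13.6 FPKM at P7, and 16.3 and 14.1 FPKM at P14, so both P2 libraries were above all others. The receptor sums and shares leave out Notch4, which is not a member and was at 2.39 ± 0.484 FPKM at P2 and 3.82 ± 0.370 FPKM at P14 (SD, n = 2). The summed target level was 8.67 and 14.1 FPKM at P2, 10.3 and 10.9 FPKM at P7, and 12.9 and 13.7 FPKM at P14, which overlapped between P2 and each later stage. The ratio of summed targets to summed receptors, a quantity chosen after the values were seen, was 0.434 and 0.490 at P2, 0.624 and 0.804 at P7, and 0.790 and 0.966 at P14. It was lower in both P2 libraries than in any later one, and P7 and P14 overlapped. The means were 0.462 ± 0.0395, 0.714 ± 0.128 and 0.878 ± 0.125 (SD, n = 2). The ratio of summed targets to summed ligands was 0.897 and 1.01 at P2 and 0.991 and 1.09 at P7. Those stages overlapped, and the P14 ratios of 1.33 and 1.53 lay above both.

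**Figure D3:**
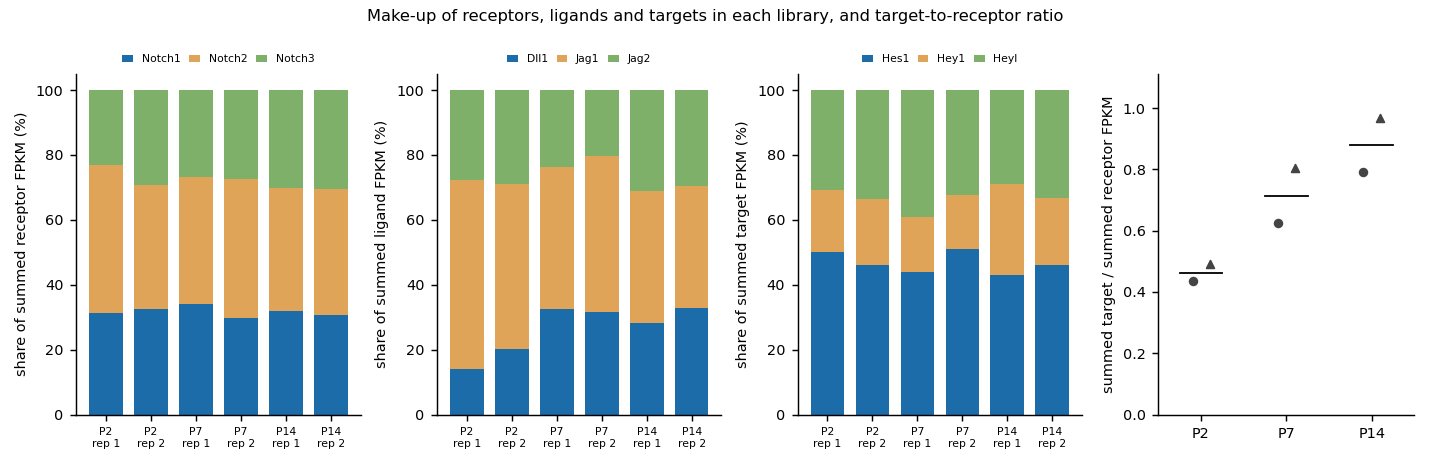
Share of each gene in the summed FPKM of receptors, ligands and targets (3 bar panels, y axis in percent) for each library (x axis), and the ratio of summed target to summed receptor FPKM by stage (last panel; circles replicate 1, triangles replicate 2, lines means). The Dll1 segment is narrowest at P2 (14.2% and 20.3%), and the ratio is lowest at P2 (0.434 and 0.490).

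In level, Rbpj was followed at P2 by Notch2, Notch1, Notch3, Jag1, Hes1, Heyl, Jag2, Hey1 and Dll1, and every pair of neighbours in this order overlapped. At P7 the order was Rbpj, Notch2, Hes1, Notch1, Jag1, Notch3, Heyl, Dll1, Jag2 and Hey1. There the libraries of Hes1 and Notch1, of Notch1 and Jag1, and of Notch3 and Heyl overlapped, and the other neighbours did not. At P14 it was Rbpj, Hes1, Notch2, Notch1, Notch3, Heyl, Jag1, Hey1, Dll1 and Jag2, and among neighbours only Rbpj stood apart from Hes1 and Notch2 from Notch1. Hes1 thus moved from the sixth place at P2 to the second at P14, where its mean of 5.92 ± 0.543 FPKM did not stand apart from the 5.84 ± 0.464 FPKM of Notch2 (SD, n = 2).

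The authors' deposited table gives a fold change, as the larger value over the smaller, and an unadjusted p-value. In the authors' deposited table Notch2 was 1.60-fold lower (p = 0.0011), Jag1 1.62-fold lower (p = 0.0101) and Notch1 1.52-fold lower (p = 0.0358) at P14 than at P2, and Hey1 was 1.56-fold higher (p = 0.0339). At a p below 0.05 the authors' deposited table thus held 3 of the 10 members lower and 1 higher, against 14% and 19.4% of 13562 genes. For P7 versus P2 the authors' deposited table had only Dll1 below 0.05 among the members, 2.01-fold higher (p = 0.00695), where 6.17% of genes were higher at that p. For P14 versus P7 the authors' deposited table had Jag1 1.53-fold lower (p = 0.012) and Hey1 1.51-fold higher (p = 0.0254), where 9.76% of genes were lower and 17% higher. Its directions differed from the limma fit for Hes1 and Hey1 in P7 versus P2, and for Notch3, Hes1 and Heyl in P14 versus P7. None of these was below 0.05 there or called by limma. With median-of-ratios scaling all of them took the authors' direction. In P7 versus P2 the log2 difference was then 0.22 for Hes1 and 0.05 for Hey1. In P14 versus P7 it was -0.10 for Notch3, -0.06 for Hes1 and -0.15 for Heyl. Whether scaling was the reason was not tested. For P14 versus P2 every member had the same direction in both.

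Of 56 other genes of the pathway, 48 passed the filter on low values. For P14 versus P2, 3 were called higher and 4 lower, where 11.5% and 12.9% of all tested genes were, and their median log2 difference was -0.08, against -0.05 over all genes. The largest difference was that of Dlk1, a Delta-like protein without the domain by which ligands activate the receptor and an imprinted gene of growing tissues. Dlk1 was at 196 ± 31.1 FPKM at P2, 88.4 ± 5.39 FPKM at P7 and 20.8 ± 1.43 FPKM at P14 (SD, n = 2), a log2 difference for P14 versus P2 of -3.16 (SE 0.20, limma adjusted p = 0.000777). It was also called lower at P14 than at P7 (-2.03, limma adjusted p = 0.00984), a call lost without any single P7 or P14 library (highest limma adjusted p 0.112). Neurl1a, a ubiquitin ligase that acts on Notch ligands, rose from 3.63 ± 1.29 FPKM at P2 and 3.47 ± 0.601 FPKM at P7 to 10.8 ± 2.05 FPKM at P14, with log2 differences of 1.37 against P2 and 1.40 against P7 (limma adjusted p = 0.0107 and 0.0273). The first of these calls was lost without P14 replicate 1 (limma adjusted p = 0.0667) and the second without any single P7 or P14 library (highest limma adjusted p 0.174).

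The other called pathway genes lay nearer to the threshold. Lfng, a Fringe glycosyltransferase that alters which ligands a receptor answers to, fell from 2.17 ± 0.0914 to 1.14 ± 0.0625 FPKM between P2 and P14 (log2 difference -0.57, limma adjusted p = 0.0428). Tle3, a Groucho-type corepressor, had a P2 level of 8.79 ± 0.254 and a P14 level of 4.36 ± 0.549 FPKM (-0.87, limma adjusted p = 0.0247). For Numbl, a relative of the Notch antagonist Numb, these levels were 3.73 ± 1.09 and 1.85 ± 0.216 FPKM (-0.71, limma adjusted p = 0.0391). Kat2b, an acetyltransferase that serves as a Notch coactivator, rose from 8.77 ± 0.733 to 15.6 ± 0.881 FPKM (0.76, limma adjusted p = 0.0165), and Fbxw7, a ubiquitin ligase subunit that targets the Notch intracellular domain for degradation, from 11.1 ± 0.0250 to 17.4 ± 0.706 FPKM (0.60, limma adjusted p = 0.0327). The calls of Lfng and Fbxw7 were lost without any single library (highest limma adjusted p 0.159 and 0.167), that of Numbl without any except P2 replicate 1 (0.181), that of Tle3 without any single P2 or P14 library (0.112), and that of Kat2b without either P14 library (0.104). The largest differences not called were those of Mfng, another Fringe, at 2.59 ± 1.53 FPKM at P2 and 1.26 ± 0.236 FPKM at P14 (-0.60, limma adjusted p = 0.175), and of Snw1, a nuclear coactivator and splicing factor, at 12.7 ± 2.49 and 18.4 ± 2.60 FPKM (0.51, limma adjusted p = 0.107). Mfng rested on P2 replicate 2: leaving out that library gave -0.16, and leaving out P2 replicate 1 gave -1.05 and a call (limma adjusted p = 0.593 and 0.0240). For P7 versus P2, 0 of the 48 were called by limma, 14 had an unadjusted p below 0.05, and the median was -0.35, against -0.27 over all genes. For P14 versus P7, Neurl1a was called higher and Dlk1 lower, and the median was 0.21, against 0.23 over all genes.

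**Figure D4:**
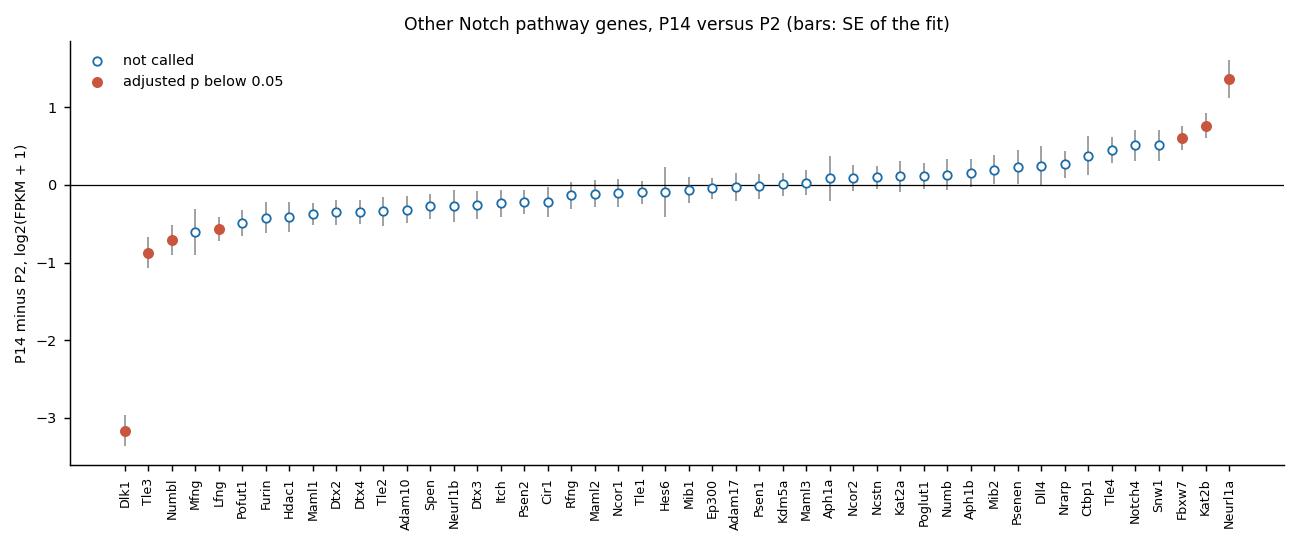
Difference of log2(FPKM + 1) between P14 and P2 (y axis) for the 48 tested other Notch pathway genes, ordered by size (x axis); bars are the SE of the fit and filled points passed the adjusted threshold. Most genes lie near 0, and Dlk1 stands apart at -3.16 with Neurl1a at 1.37 at the other end.

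Cell type and growth markers also differed between the stages, and the part of any of them in the differences of the Notch genes was not tested. The counts called at P14 against P2 in each list are to be read against the 11.5% of all tested genes called higher and the 12.9% called lower. Of 14 endothelial markers, 4 were called higher at P14 against P2 and 0 lower, with a median log2 difference of 0.70, and their summed level was 102 to 186 FPKM at P2, 139 to 147 FPKM at P7 and 213 to 240 FPKM at P14. Ptprb, an endothelial phosphatase, was at 5.63 ± 1.72 FPKM at P2 and 11.8 ± 0.0634 FPKM at P14, the VEGF receptor Flt1 at 3.03 ± 0.562 and 6.14 ± 0.188 FPKM, and Esam, an adhesion protein that was not called, at 8.77 ± 6.18 and 14.5 ± 1.70 FPKM (SD, n = 2). The calls of Ptprb and Flt1 were lost without either P14 library (highest limma adjusted p 0.0884 and 0.0859). Of 6 tested markers of arterial endothelium, the cells in which Notch is most active among vessels, 0 were called by limma and 0 had an unadjusted p below 0.05. With Bmx, which was below the filter, these genes had a sum of 10.5 to 13.7 FPKM at P2, 8.95 to 9.97 FPKM at P7 and 10.9 to 11.3 FPKM at P14. Within it the connexin Gja5 was at 1.46 ± 0.288 and 0.911 ± 0.0460 FPKM, Sox17 at 1.06 ± 0.127 and 1.42 ± 0.0812 FPKM, and Efnb2 at 3.13 ± 0.409 and 2.63 ± 0.152 FPKM at P2 and P14.

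Of 11 tested mural cell markers, 4 were higher and 1 lower at P14, with a median of 0.71. With Cnn1, which was below the filter, their sum was 141 to 211 FPKM at P2, 172 to 174 FPKM at P7 and 295 to 399 FPKM at P14. The pericyte gene Rgs5 rose from 31.9 ± 16.0 to 121 ± 10.3 FPKM and Abcc9 from 18.6 ± 3.29 to 39.8 ± 7.83 FPKM, and both calls were lost without P14 replicate 1 (limma adjusted p = 0.0561 and 0.0950); smooth muscle actin, Acta2, at 62.8 ± 11.6 and 128 ± 50.1 FPKM, was not called. The mural list did not move one way: 4 of its 11 tested genes had negative differences. The gene called lower was Myh11, smooth muscle myosin, at 5.90 ± 1.49 FPKM at P2 and 3.36 ± 0.432 FPKM at P14 (log2 difference -0.65, limma adjusted p = 0.0492), named after its values were seen; the call was lost without any library except P2 replicate 1 (highest limma adjusted p 0.225). Tagln was at 12.4 ± 2.75 and 7.40 ± 0.510 FPKM and was not called (-0.65, limma adjusted p = 0.0570). Of 11 satellite cell markers, 0 were higher and 3 lower at P14, with a median of -0.38, and 4 had positive differences that were not called. Their sum was 60.6 to 74.5 FPKM at P2, 45.7 to 52.3 FPKM at P7 and 57.9 to 65.6 FPKM at P14. Vcam1 fell from 6.77 ± 1.04 to 2.34 ± 0.394 FPKM and Myf5 from 4.23 ± 0.341 to 2.01 ± 0.276 FPKM, a call lost without P14 replicate 1 (limma adjusted p = 0.0931), and Fgfr4, at 3.45 ± 1.54 and 1.61 ± 0.308 FPKM, was not called. The 6 genes of myogenic differentiation had a median of -0.74. Their sum was 1227 to 1377 FPKM at P2, 490 to 495 FPKM at P7 and 97.4 to 119.6 FPKM at P14. Most of the P2 sum was Myh8. At P14, 2 of the 6 had positive differences from P2, 0 were called higher and 3 were called lower. The 3 were the embryonic myosin Myh3, which fell from 88.8 ± 14.3 to 4.86 ± 2.33 FPKM, the neonatal myosin Myh8, from 1142 ± 112 to 30.8 ± 3.09 FPKM, and Tmem8c, the fusion protein myomaker, from 9.64 ± 0.188 to 4.62 ± 0.795 FPKM, a call lost without P14 replicate 2 (limma adjusted p = 0.0579).

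The fall from P2 to P14 was called for all 14 cell cycle genes, with a median log2 difference of -1.77 and a sum of 176 to 220 FPKM at P2, 97.2 to 97.4 FPKM at P7 and 42.8 to 62.2 FPKM at P14. Mki67, the proliferation marker, fell from 30.4 ± 4.73 to 6.01 ± 1.32 FPKM, Rrm2 from 11.5 ± 0.178 to 2.00 ± 0.209 FPKM and Top2a from 30.2 ± 5.64 to 7.20 ± 1.91 FPKM. Of 11 fibroblast markers, 2 were higher and 0 lower, with a median of 0.04, and 5 had negative differences that were not called. Their sum was 745 to 1198 FPKM at P2, 668 to 689 FPKM at P7 and 876 to 980 FPKM at P14. Of these, Thy1 was at 4.17 ± 2.56 FPKM at P2 and 11.7 ± 1.36 FPKM at P14, Gsn at 46.8 ± 6.04 and 84.7 ± 7.11 FPKM, and Dcn, not called, at 177 ± 58.7 and 257 ± 14.6 FPKM. The call of Thy1 was lost without either P14 library (highest limma adjusted p 0.122) and that of Gsn without any library except P2 replicate 2 (0.124). The lists of nerve, immune and skeletal tissue also moved. Of 9 tested Schwann cell markers, 0 were higher and 2 lower at P14, with a median of -0.58. With Foxd3, which was below the filter, their sum was 88.7 and 296 FPKM at P2, 93.7 to 127 FPKM at P7 and 72.1 to 171 FPKM at P14, so the P2 replicates differed more than the stages. The nerve growth factor receptor Ngfr fell from 3.17 ± 0.330 to 0.711 ± 0.0787 FPKM and Erbb3 from 3.56 ± 0.121 to 1.80 ± 0.157 FPKM, the second call lost without P2 replicate 1 or either P14 library (highest limma adjusted p 0.122). Of 9 macrophage markers, 0 were higher and 1 lower, with a median of -0.25 and a sum of 65.1 to 94.02 FPKM at P2, 43.9 to 51.3 FPKM at P7 and 59.1 to 66.5 FPKM at P14. The lysosomal marker Cd68 was at 6.19 ± 0.638 and 2.55 ± 0.146 FPKM, a call lost without P14 replicate 1 (limma adjusted p = 0.0505), and Emr1, at 4.14 ± 2.07 and 2.44 ± 0.240 FPKM, and Cx3cr1, at 1.51 ± 0.220 and 0.763 ± 0.135 FPKM, were not called.

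Of 8 tested cartilage and bone markers, 2 were called higher and 4 lower for P14 against P2. Their differences ran from -4.32 to 0.96, with a median of -1.33, and the 2 called higher are not among those named here. With Sox9 and Matn1, which were below the filter, their sum was 104 and 50.1 FPKM at P2, 70.1 and 47.3 FPKM at P7, and 11.4 and 9.78 FPKM at P14. The bone matrix gene Ibsp was at 37.3 and 9.41 FPKM at P2 and listed at 0 in both P14 libraries. Osteocalcin, Bglap, fell from 31.3 ± 1.70 to 0.798 ± 0.0165 FPKM, a call lost without any single P2 or P14 library (highest limma adjusted p 0.0768), and the cartilage collagen Col2a1, at 20.0 and 4.23 FPKM at P2 and 3.34 and 2.71 FPKM at P14, was not called. Ibsp, Sp7 and Matn1 were the only markers of the 10 lists described here, the cartilage and bone list included, at 0 in some library. At P2, replicate 2 exceeded replicate 1 in the sums of 9 of these 10 lists, as it did for all 10 Notch genes, and cartilage and bone went the other way.

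**Figure D5:**
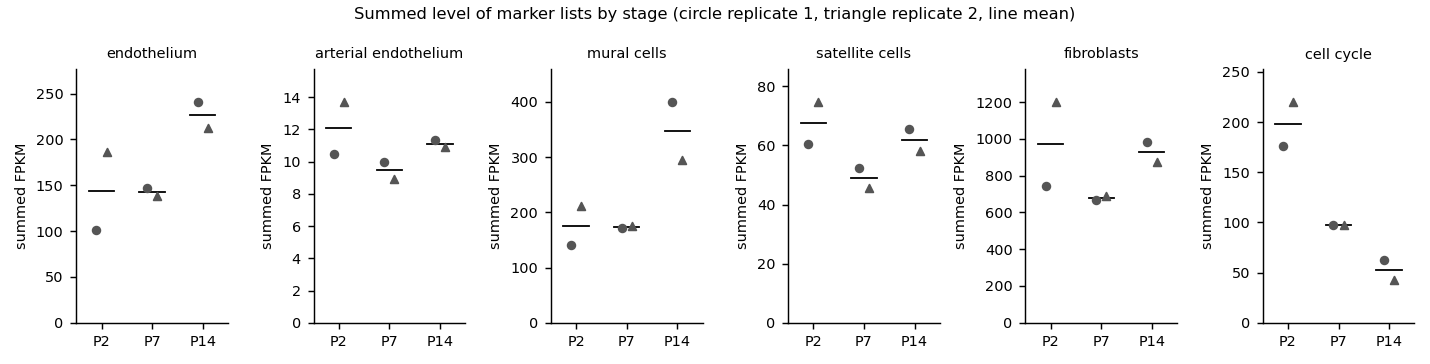
Summed FPKM of 6 marker lists (y axes, linear, from 0) by stage (x axis); circles are replicate 1, triangles replicate 2 and lines the stage means. Endothelial and mural sums are highest at P14 (213 to 240 and 295 to 399 FPKM), the cell cycle sum is highest at P2 (176 to 220 FPKM), and the arterial sum stays between 8.95 and 13.7 FPKM.

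Among 153 tested genes of the pathway and marker lists, those with the pattern most like that of Notch2 over the 6 libraries were Pofut1, which adds fucose to Notch receptors, and Tagln, a smooth muscle gene. Likeness was the root mean square difference of log2(FPKM + 1) values centred on each gene's mean, and was 0.101 for Pofut1 and 0.106 for Tagln. Pofut1 was at 8.91 ± 1.55 FPKM at P2 and 6.02 ± 0.469 FPKM at P14 (SD, n = 2) and was not called (limma adjusted p = 0.0776). Tagln is one of the mural markers above, and its levels are given there.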

How the data were processed

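RNA of hindlimb muscle was extracted with Trizol and made into stranded libraries after ribosomal depletion, per the labels' protocols; use of the strand in counting is not given in the sources used here. Per the submitters' processing notes, the genome build was GRCm38 and the authors' tools were TopHat2 2.0.8, Cuffdiff 2.2.1, Cufflinks 2.2.1, FastQC 0.10.1 and CASAVA 1.2-14. The deposited values are FPKM per gene and library, with no scaling stated; the deposited comparison tables hold, per the file headers, a fold change (a ratio) and an unadjusted p-value. With FPKM only, precision rests on the 2 libraries per stage.

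Here, log2(FPKM + 1) of the 13566 genes with at least 1 FPKM in at least 2 of 6 libraries was fitted with limma 3.58.1 in R 4.3.3, with 1 mean per stage, empirical Bayes moderation and a variance trend (residual degrees of freedom 3, prior 3.80), and two-sided p-values were adjusted by Benjamini-Hochberg over all of them. The SE of a log2 difference had a median of 0.193. The fit was tested on simulated data. The members, lists and tests were chosen with earlier results of these data known. Named genes are all members, every pathway gene called in a comparison with the 2 largest not called, the 3 largest differences of each marker list shown (1 gene under this rule is not reported here), and the 2 genes most like each member called by the F test. Replicate numbers were not treated as pairs in the main fit. Same-numbered deviations correlated at -0.02, 0.03 and -0.16. With 2 libraries per stage these values cannot show whether libraries were collected or prepared together. The alternatives were other pseudocounts, filters and scalings, no variance trend, a replicate block, only the 4 libraries compared, and each library left out. Pathway and marker symbols without a match (Cdh15 and Acta1) are not analysed here, and Adgre1 was matched by its older symbol Emr1.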

Additional observations from a re-analysis of the deposited data

How the results depend on the processing

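The P14 versus P2 differences of Notch2 and Jag1 were negative under all 16 alternatives, from -1.02 to -0.47 and from -0.96 to -0.39 (log2), while their limma adjusted p ran from 0.00258 to 0.124 and from 0.00227 to 0.143. Of 465 single-member values under alternatives, 436 stayed on the same side of the threshold, 13 gained a call and 16 lost one. The 436 include uncalled values whose sign changed, as for Hes1 in P7 versus P2 under 5 of 16 alternatives. The count of members lower at P14 than at P2 (2) was 0 without a filter, 0 with a replicate block, 0 with only the 4 libraries compared and 5 with scaling to the protein-coding sum; for P14 versus P7 (0) it was 1 with median-of-ratios scaling, 1 with quantile normalization and 2 with the protein-coding sum, and 1 member was higher with only the 4 libraries. The protein-coding sum moved the median of all genes for P14 versus P2 from -0.05 to -0.34, and the split of all calls from 1557 higher and 1744 lower to 1266 and 4961. Median-of-ratios scaling moved the all-gene median of P7 versus P2 from -0.27 to 0.003. The F test count of members (1) was 0 without a filter, 2, 3 and 4 under median-of-ratios, quantile and protein-coding scaling, and 0 with the block.

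Other pathway genes lower at P7 than at P2 (0) numbered 1 with a pseudocount of 5, quantile normalization, protein-coding scaling or no variance trend. Higher at P14 than at P7 (1) were 0 without a filter, 2 at an FPKM of at least 5, 0 with the replicate block and 4 with only the 4 libraries; lower (1) were 0 without a filter and 3 with protein-coding scaling. Higher at P14 than at P2 (3) were 1 without a filter, 5 with median-of-ratios and 6 with quantile scaling; lower (4) were 1 without a filter, 2 at an FPKM of at least 5, 19 with protein-coding scaling and 2 with only the 4 libraries. By the F test (4) they were 1 without a filter, 16 with protein-coding scaling and 2 with the block. The cause of these moves was not tested.

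Leaving out single libraries gave 0 to 3 members lower and 0 to 1 higher for P14 versus P2, 0 to 1 higher and 0 lower for P14 versus P7, 0 in either direction for P7 versus P2, and 0 to 3 in the F test; other pathway genes ranged from 0 to 2 higher and 1 to 4 lower, 0 to 4 higher and 0 to 1 lower, 0 and 0, and 1 to 8. Where a stage is left with 1 library, that library is assumed to vary like the others. The replicate block changed no other call of a member.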

Other observations

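Of the pathway list, 8 genes were below the filter and were not tested: the ligand Dll3, the ligand-like Dlk2 and Dner, the protease subunit Aph1c, the targets Hes5, Hes7 and Hey2, and Dtx1. Hey2, an arterial target of Notch, was at 0.648 ± 0.187 FPKM at P2 and 0.216 ± 0.0173 FPKM at P14 (SD, n = 2). Hes5 was listed at 0 in 5 of the 6 libraries and at 0.0484 FPKM in P2 replicate 2. Notch4, the receptor best known from endothelium, was at 2.39 ± 0.484 FPKM at P2 and 3.82 ± 0.370 FPKM at P14 (SD, n = 2) and was not called (log2 difference 0.51, limma adjusted p = 0.105).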
